A study of Drosophila melanogaster with 2 samples.

Results

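The weak ranked peaks in coding exons were 12276 of the 67232 peaks that the authors ranked over both replicates of a Gug-eGFP ChIP-seq experiment in Drosophila melanogaster. They were chosen by measured values and by position. A peak was kept when it lay on the 6 main chromosome arms, when its irreproducible discovery rate (IDR) was above 0.01, and when its summit lay in a protein-coding exon with no transcript start within 500 bp. The IDR is a rate between 0 and 1 that is low where a peak ranks high in both replicates, and 0.01 was the limit that the authors' thresholded list also follows. None of the 12276 peaks was in that thresholded list, which held 5709 peaks. Being weak, lying in a coding exon and lying away from transcript starts are therefore the choice itself and not findings. The experiment used whole prepupae (age 1 day) of the strain Gug-GFP, in which an insertion targets Gug so that the flies express Gug-eGFP, and the chromatin was sonicated and precipitated with an antibody to GFP. The labels give 1 group of 2 biological replicates, with sex not collected. Every replicate carried the tagged protein, and no untagged or input sample was analysed here, although a control alignment entered the peak calling per the deposited notes. Whole animals mix all cell types, so a weak peak from many cells and a strong peak from few cells cannot be told apart.

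Gug, also named Grunge or Atrophin, is a transcriptional corepressor. It is brought to DNA by sequence-specific transcription factors, among them the nuclear receptor Tailless, and works with histone-modifying enzymes. ChIP-seq recovers the DNA fragments that are bound to a tagged protein, and peak calling lists places where such fragments pile up. A ranked list is deliberately long: it reaches down into weak places so that the agreement of replicates can be measured. In Drosophila, coding exons are richer in G and C than introns and the DNA between genes.

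The 6 summit windows printed here are examples picked by signal and by gene, and not typical peaks. They are 4 of the 10 peaks with the highest deposited signal, and the strongest peak of each of the 2 genes that held the most of these peaks. Each is the 200 bases around the summit, read 5′ to 3′ on the coding strand of the gene from the RefSeq genome of the dm6 assembly, and every summit is in a coding exon. The capitals mark the stretch between the summits of the matched peaks in replicates 1 and 2, which is 1 base where the 2 summits fall on the same base. The windows are CG7497 (chr3L:17637081-17637280, plus strand), CG5953 (chr2L:16511341-16511540, minus strand), CG43693 (chr3L:11038129-11038328, minus strand), rt (chr3L:11586905-11587104, minus strand), dpy (chr2L:4495090-4495289, minus strand) and Msp300 (chr2L:5203357-5203556, plus strand). In the CG5953 window, 106 of the 200 bases are coding, and in the others all 200 are.
CG7497: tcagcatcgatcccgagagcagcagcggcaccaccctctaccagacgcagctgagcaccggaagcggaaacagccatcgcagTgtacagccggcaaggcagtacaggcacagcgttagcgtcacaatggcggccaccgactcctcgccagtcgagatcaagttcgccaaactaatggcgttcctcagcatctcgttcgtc
CG5953: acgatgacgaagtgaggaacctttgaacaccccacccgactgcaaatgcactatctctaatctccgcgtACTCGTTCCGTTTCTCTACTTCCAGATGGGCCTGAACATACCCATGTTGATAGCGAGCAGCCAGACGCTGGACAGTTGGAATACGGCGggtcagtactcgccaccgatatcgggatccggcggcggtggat
CG43693: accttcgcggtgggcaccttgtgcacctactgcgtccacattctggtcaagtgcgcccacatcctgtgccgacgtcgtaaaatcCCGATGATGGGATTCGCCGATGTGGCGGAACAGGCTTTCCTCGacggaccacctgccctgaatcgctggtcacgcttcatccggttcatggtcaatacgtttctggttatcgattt
rt: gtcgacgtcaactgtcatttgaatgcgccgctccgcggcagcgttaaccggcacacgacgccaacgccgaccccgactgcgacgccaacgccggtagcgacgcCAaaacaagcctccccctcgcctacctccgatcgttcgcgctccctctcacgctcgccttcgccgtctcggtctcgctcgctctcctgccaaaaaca
dpy: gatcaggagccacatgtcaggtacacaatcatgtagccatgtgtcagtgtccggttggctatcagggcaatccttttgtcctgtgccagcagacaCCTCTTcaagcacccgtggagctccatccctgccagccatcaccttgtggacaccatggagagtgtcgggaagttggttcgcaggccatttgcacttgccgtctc
Msp300: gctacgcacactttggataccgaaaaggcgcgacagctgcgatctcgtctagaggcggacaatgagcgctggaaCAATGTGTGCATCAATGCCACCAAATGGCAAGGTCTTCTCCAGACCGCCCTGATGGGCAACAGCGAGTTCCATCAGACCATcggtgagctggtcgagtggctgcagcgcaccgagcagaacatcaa

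The windows hold much G and C: 60% of the bases in CG7497, 55% in CG5953, 56% in CG43693, 65% in rt, 55.5% in dpy and 56.5% in Msp300. The capitals differ in length from window to window. In CG7497 both replicates placed the summit on the same base, in rt they were 1 bp apart and in dpy 5 bp apart, while in CG43693 the distance was 42 bp, in Msp300 80 bp and in CG5953 87 bp. The gene rt encodes an O-mannosyltransferase, dpy encodes a giant protein of the apical extracellular matrix, and Msp300 encodes a giant nesprin that ties nuclei to the cytoskeleton.

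Of the 67232 ranked peaks, 67047 lay on the 6 arms, and no summit occurred more than once. On the arms, 61244 peaks were weak (IDR above 0.01) and 5803 were past the limit (IDR of 0.01 or less). In the whole list 5806 peaks were past the limit, and 97 of them are not in the thresholded list. The peaks matched in the list were those of the replicates: 32846 of the 53900 distinct first matched peaks were found in the ranked list of replicate 1 and 0 in that of replicate 2, and 34056 of the 51145 second ones were found in that of replicate 2 and 0 in that of replicate 1. Read depth is unknown. The deposited signal is the peak caller's own value with no stated unit, and it was used only to describe and rank peaks within a list.

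Coding exons away from transcript starts held 20.04% of the weak peaks (12276 of 61244, 95% exact binomial interval 19.7 to 20.4%), while they make up 13.8% of the bases of the arms (18.5 Mb), a ratio of 1.45. The interval covers counting error only, and peaks of the same libraries are not independent replicates. In the ranked lists of replicate 1 alone and of replicate 2 alone the share was 17.9% and 18.1%. Among the peaks past the limit, 18 of 5803 lay in such exons, or 0.310% (0.184 to 0.490%). Per Mb of sequence of their own kind, the weak peaks numbered 665 in coding exons (653 to 677), 494 within 500 bp of a transcript start, 454 in introns, 366 between genes and 282 in other exons. Past the limit, coding exons held 0.975 peaks per Mb, against 91.3 near transcript starts and 52.7 in introns. The coding exons were thus the densest class among the weak peaks and the sparsest of these 3 past the limit, although the limit and the position are both part of how the peaks were chosen.

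The share of coding exons hardly varied over most of the list and then fell off. With all ranked peaks on the arms cut into 10 groups of equal size by signal, coding exons held 19.9 to 23.3% of each of the lowest 8 groups, 11.3% of group 9 (signal 42.1 to 61.0) and 0.656% of group 10. Peaks near a transcript start took 15.5 to 18.96% of the lowest 8 groups, 25.2% of group 9 and 35.3% of group 10. By IDR, coding exons held 23.6% of the peaks with a −log10 IDR under 0.1, 15.7% of those between 0.1 and 0.2, 20.2% of those between 0.2 and 0.5, 15.4% of those between 0.5 and 1, 6.24% of those between 1 and 2 and 0.310% of those at 2 or more. Of the weak coding-exon peaks, 6682 (54.4%) sat at the lowest −log10 IDR in the list, 0.0856, which is an IDR of 0.821. The same held for 44.4% of the weak peaks in introns and 38.6% of those near a transcript start.

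**Figure D1:**
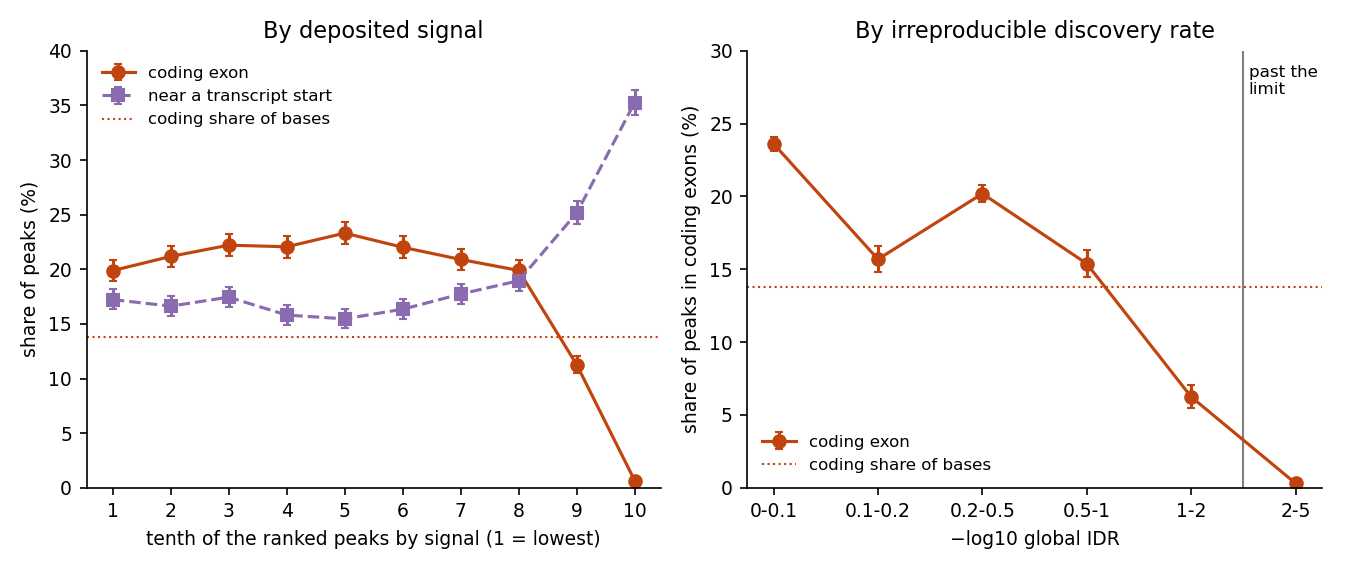
Left, percent of ranked peaks in each of 10 groups of equal size by signal (low to high) that lay in coding exons or within 500 bp of a transcript start. Right, percent in coding exons by −log10 IDR; bars on both are 95% exact binomial intervals and the dotted line is the 13.8% of bases that are coding and away from starts. Coding exons held 19.9 to 23.3% of the lowest 8 signal groups and 0.656% of the highest.

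The weak coding-exon peaks were of 1 shape. All 12276 were 336 bp wide with the summit at the midpoint, and the matched peaks most often were 304 bp wide in replicate 1 and 320 bp in replicate 2, so the width carries no information about single peaks. Their signal over both replicates ran from 2.00 to 73.4, with a median of 24.4 and quartiles of 15.7 and 32.0. The median was 26.0 for weak peaks in introns and 27.4 for those near a transcript start. In the replicates, the signal of the matched peaks had a median of 12.3 in replicate 1 (6.05 to 63.1) and 16.3 in replicate 2 (11.2 to 66.8). The signals of the 2 replicates are on scales of their own, and the median ratio of replicate 2 to replicate 1 was 1.35.

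Across these peaks the 2 replicates' signals were nearly unrelated. Spearman's rho over the 12276 peaks was 0.111, against 0.247 over 23133 weak intronic peaks, 0.276 over 11093 weak peaks near a transcript start and 0.810 over the 5803 peaks past the limit. All points share the same 2 libraries, and the choice by IDR narrows the range of the weak peaks, so rho is given as a description. The summits of the matched peaks were within 100 bp of each other for 49.2% of the coding-exon peaks (48.3 to 50.1%), with a median distance of 103 bp and a highest distance of 1245 bp. Weak peaks in introns had 51.9% within 100 bp (median 95 bp), and those near a transcript start had 53.4% (median 91 bp). Of all peaks past the limit, 76.1% had summits under 50 bp apart and a further 17.2% had them under 100 bp apart, and the median was 18 to 37.5 bp by class of position. The replicates therefore placed the summits of weak coding-exon peaks close together a little less often than those of other weak peaks, and much less often than those of peaks past the limit.

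The peaks were not alike in this. Cut into 5 groups of equal size by signal (2.00 to 13.2, to 21.3, to 27.2, to 34.0 and to 73.4), they had replicate summits within 100 bp in 26.5%, 25.4%, 50.5%, 64.7% and 78.9% of cases, low to high. The median distances were 209, 197, 98, 67 and 44 bp. The peaks of high signal thus had closer replicate summits. The list also held overlapping claims: 51.2% of the coding-exon peaks shared a matched replicate peak with another ranked peak, from 97.9% in the lowest group to 23.1% in the highest. Other weak peaks were much the same, with 48.6% in introns and 47.9% near a transcript start. Past the limit it was 16.7 to 22.8% by class of position. In 88.5% (10859) of the coding-exon peaks the listed interval overlapped both matched peaks, from 64.1% in the lowest group to 99.8% in the highest. For the weakest coding-exon peaks, the signal of a replicate is therefore often that of a peak beside the listed one.

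**Figure D2:**
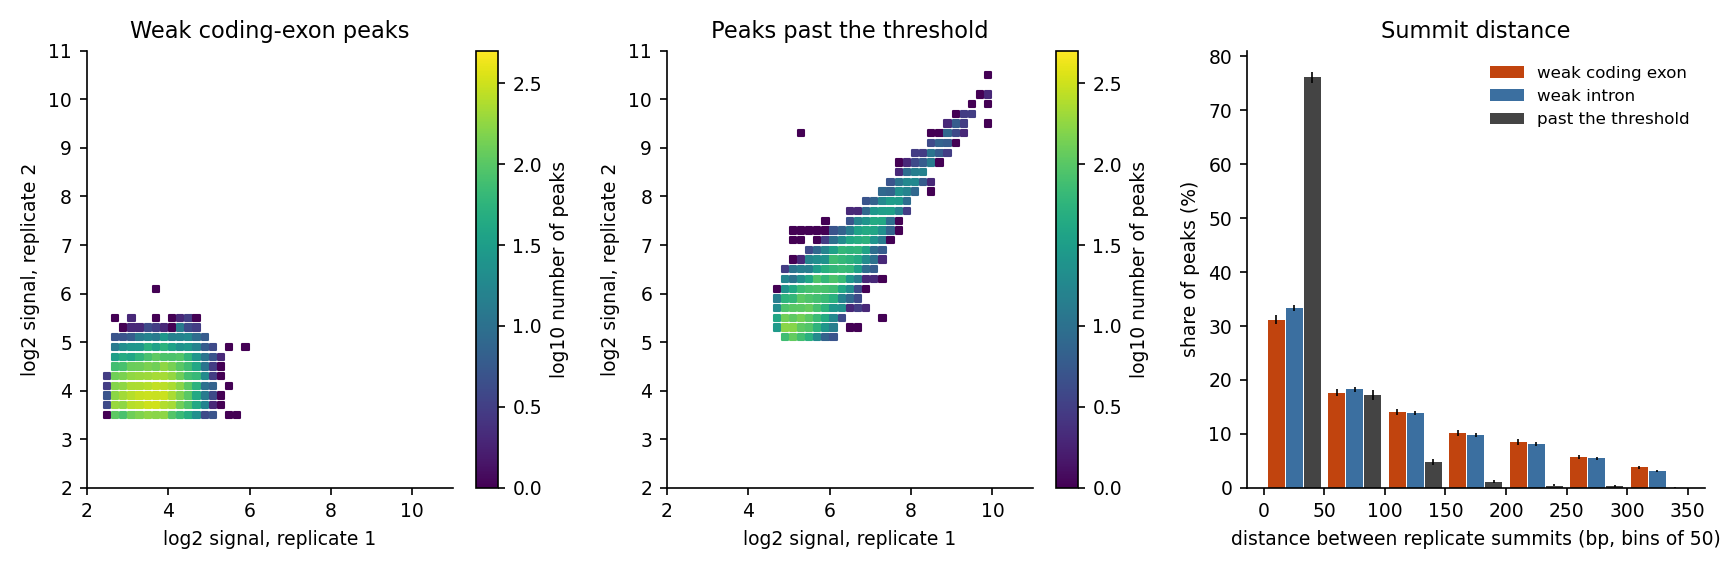
Left and middle, log2 signal of the matched peak in replicate 1 (x axis) and replicate 2 (y axis), shaded by the number of peaks, for weak coding-exon peaks and for peaks past the limit. Right, percent of peaks by distance between the replicates' summits in steps of 50 bp, for weak coding-exon, weak intronic and past-limit peaks, with 95% exact intervals (distances of 350 bp and more are not shown); 31.2% of the weak coding-exon peaks were under 50 bp, against 76.1% of the peaks past the limit.

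Each replicate also had a ranked list of its own, made from that replicate alone. Of the weak coding-exon peaks, 52.4% had their matched peak in the list of replicate 1, 57.4% in that of replicate 2, 31.7% in both (30.9 to 32.6%) and 22.0% in neither. Weak peaks in introns were in both in 39.8% and those near a transcript start in 44.6%. Within the coding-exon peaks, the share in both lists by signal group was 28.6%, 19.1%, 20.5%, 32.5% and 58.0%, low to high. Only 7 peaks (0.0570%) were past the IDR limit in a replicate's own list, compared with 374 weak intronic peaks (1.62%). The larger set that the authors deposited for both replicates held a ranked peak at 72.1% of the coding-exon peaks, 75.9% of the weak intronic peaks and 78.4% of those near a start. Past its limit were 7 of the coding-exon peaks (0.0570%), against 315 of the weak intronic peaks (1.36%) and 297 of those near a start (2.68%).

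The single peaks with the highest signal showed how the 2 replicates contributed. A peak in eIF2Bdelta, which encodes a subunit of the guanine exchange factor of translation initiation, had a pooled signal of 73.4, with 35.4 in replicate 1 and 26.96 in replicate 2. The CG7497 peak had 72.4, with 44.0 in replicate 1 and 29.98 in replicate 2. The CG5953 peak had 71.1, with 23.3 in replicate 1 and 43.0 in replicate 2. In these 3 neither replicate was high in all: the first 2 were higher in replicate 1 and the last in replicate 2. The CG43693 peak had 69.2 (24.6 in replicate 1, 45.8 in replicate 2) and the rt peak 68.5 (22.3 and 41.8 in the same order). The other 5 of the top 10 had signals of 65.5 to 66.6 and lay in Rchy1, a ubiquitin ligase gene, in pyd, the fly homologue of a tight-junction scaffold, in CG17646, in CG33229, and in sgg, the glycogen synthase kinase 3 of the Wnt pathway. The sgg peak had 18.5 in replicate 1 and 46.5 in replicate 2.

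Close to the limit, the 3 peaks named on each side were picked by their IDR, which rests on the ranks in both replicates. The 3 just inside, still weak, were in Gdap2, dpp and Reph. The Gdap2 peak had an IDR of 0.0107 and signals of 29.9 in replicate 1 and 33.7 in replicate 2. Its pooled signal was 19.6. The matched summits, at 7727945 in replicate 1 and 7727854 in replicate 2, were both to 1 side of the listed summit at 7728106. The replicate signals of Gdap2 may therefore be those of a peak beside the listed one. The peak in dpp, which encodes the BMP ligand Decapentaplegic, had an IDR of 0.0113 with 29.3 in replicate 1 and 33.7 in replicate 2, and the Reph peak had an IDR of 0.0121 with 31.8 and 32.3. The 3 just outside lay in CG32982 (IDR 0.00923, 26.98 in replicate 1, 42.9 in replicate 2), Iyd (IDR 0.00749, 29.7 and 37.1) and Nckx30C (IDR 0.00712, 27.7 and 47.8). In replicate 1 the 2 sides overlapped, and in replicate 2 the 3 weak peaks were lower than the 3 past the limit. With 3 peaks a side picked by IDR, this describes these peaks only and shows no pattern at the limit.

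The bases under the peaks were rich in G and C even for coding sequence, a property that the choice did not use beyond the coding position. The 200 bp windows around the summits had a median GC content of 55.5% (quartiles 51.5 and 59%), against 52.5% (47.5 and 57%) for windows around every eligible coding base. Weak peaks of other classes stood above their own background as well: 45% against 40.5% in introns, 46.5% against 41% between genes and 47.5% against 41.5% near transcript starts. Peaks past the limit had a median of 35% in introns and 35% near transcript starts. The 18 coding-exon peaks past the limit had a median of 58.25%.

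The density of weak peaks in coding exons climbed with GC content. It was 38.3 per Mb at windows under 35% GC, 258 at 40 to 45%, 655 at 50 to 55%, 1136 at 60 to 65% and 1481 at 65% or more. Introns followed the same course from 203 per Mb under 35% to 1320 at 60 to 65%, with 1039 at 65% or more, and the DNA between genes from 139 under 35% to 830 at 55 to 60%, but with 385 at 60 to 65% and 546 at 65% or more. When each class was given the GC content of the coding bases, the density was 665 per Mb in coding exons, 884 in introns and 618 between genes. The ratio of coding exons to introns was 1.46 without this weighting and 0.752 with it. The excess of weak peaks in coding exons over introns was therefore not seen at equal GC content, in the list of both replicates and in every alternative tried (0.603 to 0.823). What sets the GC course was not tested.

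**Figure D3:**
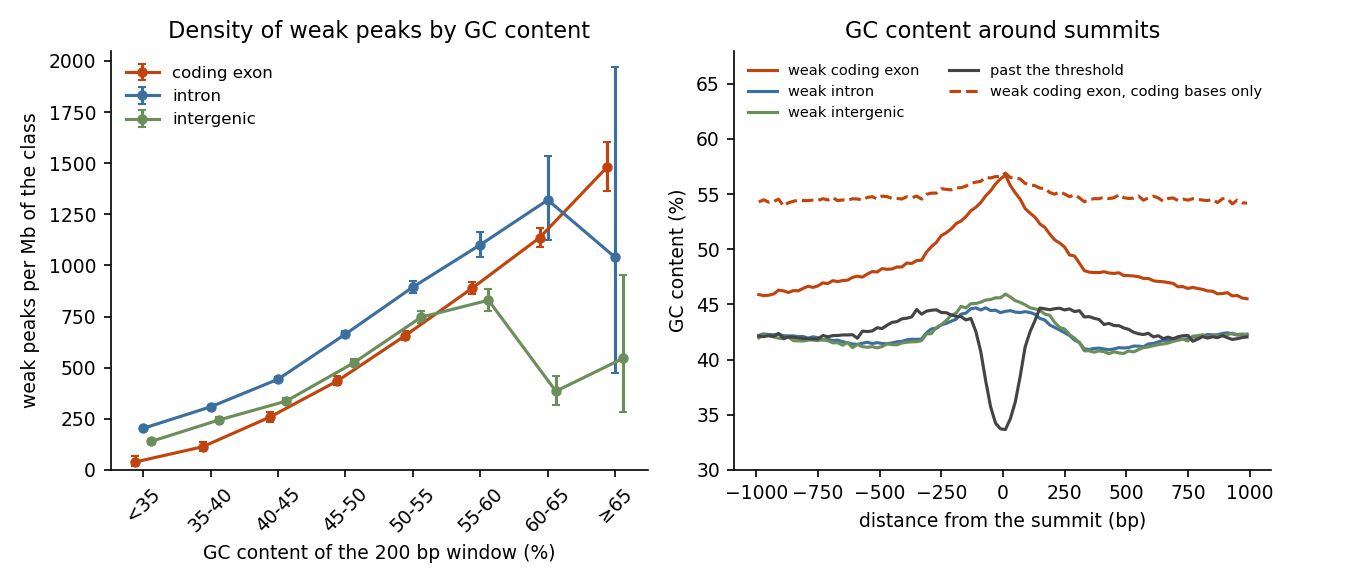
Left, weak peaks per Mb of sequence of the same kind by GC content of the 200 bp window, for coding exons, introns and DNA between genes; bars are 95% exact intervals. Right, mean GC content by distance from the summit for weak peaks of the 3 classes and peaks past the limit, with coding bases alone as a dashed line; coding-exon density runs from 38.3 per Mb under 35% GC to 1481 at 65% or more, and GC content at the summit of weak coding-exon peaks is 56.7%, against 33.7% for peaks past the limit.

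Around the summits, GC content was 56.7% at 10 bp on the plus side and fell off to 45.9% and 45.5% at 990 bp on either side, where only 47.8% and 46.5% of the bases were still coding, against 98.6% at 10 bp. Within coding bases alone it was 56.9% at the same 10 bp, 54.3% and 54.2% at 990 bp, and 53.3% over all coding bases of the arms (22.8 Mb). The fall was thus much smaller within coding bases. Around the peaks past the limit the course was turned over, with 33.7% at the summit and 42.1% at 990 bp. By codon position, the coding-exon peaks had 57.8% GC against 55.8% in all eligible coding sequence at the first position, 42.4% against 40.3% at the second and 68.2% against 64.2% at the third. All 3 positions were thus higher, the third by the most. The encoded proteins followed: over 11976 windows with a reading frame, alanine made up 8.26% of residues against 7.36%, glycine 6.68% against 6.07% and proline 6.11% against 5.62%. Lysine was at 4.89% against 5.52%, isoleucine at 4.36% against 4.86% and asparagine at 4.39% against 4.71%. Glutamine (5.77% against 5.33%) and histidine (2.908% against 2.702%) were also more frequent.

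Short motifs were searched on both strands of the windows as exact letters, and a match is a description of letters only. The largest shares in the 12276 windows were CAGGTG at 18.2%, against 15.5% of windows at all eligible coding bases and 17.6% of those weighted to the same GC content, and GGCGCC at 9.26%, against 6.88% and 9.03%. CAGCAGCAG, which in frame reads as a run of glutamine codons, was in 7.63% (7.17 to 8.12%), against 5.08% and 6.81%. TAATTA, the core that homeodomain proteins bind, was in 1.92%, against 2.95% and 1.62%, and AAGTCA, the letters that Tailless binds, was in 6.15%, against 7.46% and 6.26%. The nuclear receptor letters AGGTCA was in 7.56%, against 7.75% and 7.93%. At equal GC content, the 6 shares were thus each within 1 percentage point of that of coding windows. The intervals of CAGCAGCAG and of TAATTA (1.69 to 2.18%) still lay above their share at equal GC content. CACGTG was in 3.46%, against 2.97% and 3.35%, and CAGGTAG, the letters of the early activator Zelda, in 2.11%, against 1.89% and 2.09%. The GAGA factor letters GAGAGAG were in 1.22% (1.035 to 1.432%), against 1.05% of coding windows and 1.031% at equal GC content. The interval thus lay just above the share at equal GC content. Of the windows past the limit, 4.22% held them. TATCGATA was in 0.155% (19 windows, 0.0932 to 0.242%), an interval that holds both the 0.175% of all coding windows and the 0.131% at equal GC content. Of the windows past the limit, 1.29% held it. The last 3 were each in under 1% of the windows, and their intervals held both background shares. CACACACA was in 0.701%, against 0.592% and 0.565%. GGTCACACT was in 0.0978%, against 0.0860% and 0.0893%, and AACCGGTT in 0.130%, against 0.118% and 0.123%. No motif of the 13 contains another, but CAGGTG and CAGGTAG share their start.

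Within exons, summits lay near an edge less often than coding bases did. Of the summits, 14.9% were within 50 bp of an edge of the coding segment, against 20.6% of all eligible coding bases, and 29.4% against 36.1% were within 100 bp. Density was lowest in short and in very long segments: 467 per Mb in segments under 200 bp, 672 at 200 to 400 bp, 750 at 400 to 800 bp, 734 at 800 to 1600 bp, 653 at 1600 to 3200 bp and 486 above. Neither the edge shares nor these densities were weighted to equal GC content, so the part of GC content in them was not tested. The median segment length was 831 bp for the peaks and 825 bp for all eligible coding bases. Along the coding sequence of the gene, the median position was a fraction of 0.543 of the length from the start codon, against 0.558. As for repeated sequence, 28.3% of the windows held a soft-masked base, against 75.5% of those of weak intronic peaks. The share over all eligible coding bases was not computed, so this is not shown to be a trait of the peaks.

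The arms differed. Per Mb of eligible coding sequence there were 659 peaks on X, 604 on 2L, 682 on 2R, 684 on 3L and 720 on 3R. On chromosome 4, a small and mostly heterochromatic chromosome, 5 peaks gave 22.0 per Mb (7.13 to 51.3). An expected number was computed by giving each eligible coding base the density that all coding exons had at the GC content of its window, and it compares a gene or an arm with others of the same GC content. On chromosome 4, where coding GC content was 39.5%, it was 49.5, so that observed over expected was 0.101. On X it was 0.862, and on the other 4 arms 0.963 to 1.08. The 2 arms below the rest at equal GC content were thus chromosome 4 and X.

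Over genes, 5564 of the 12369 protein-coding genes with eligible coding sequence held at least 1 of these peaks, which is 45% of the genes (44.1 to 45.9%). Genes with a peak held a median of 2, with 503 genes holding 5 or more, 51 holding 10 or more, and 29 as the most. The longer the eligible sequence, the more often a gene had a peak: 6.96% of the genes in the shortest class and 87.7% of those of 5000 bp or more, where 59 of 478 genes had none. Peaks per kb did not climb in this way. They were 0.537 in the shortest class, 0.668 to 0.702 in the classes between, and 0.599 at 5000 bp or more. GC content was compared over the 6195 genes with at least 1000 bp of eligible sequence, of which 64.5% held a peak. In 10 groups of these genes by GC content of the coding sequence, peaks per kb went up at each step. They ran from 0.173 in the lowest group to 0.977 in the highest, and the share of genes with a peak from 24.2% to 79.0%. Inside genes the same order was seen. In 2907 of 3997 genes with at least 1000 bp of eligible sequence and a peak (72.7%), the windows of the peaks were richer in GC than the gene's own coding sequence, by a median of 1.74 points over the 3997.

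Neighbouring peaks in the same gene were a median of 548 bp apart in the genome (quartiles 238 and 1407 bp, 6717 gaps), and 39.1% of the gaps were under the 336 bp width of a peak, so such peaks overlap. Genes that held a summit past the limit (1703 genes) had 0.811 weak coding-exon peaks per kb, 1.09 times the number expected from GC content, against 0.618 per kb and 0.965 times in the 10666 genes that held none. Only 3.63% of the weak coding-exon peaks were within 1000 bp of a summit past the limit, where 2.98% of the eligible coding bases lie.

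**Figure D4:**
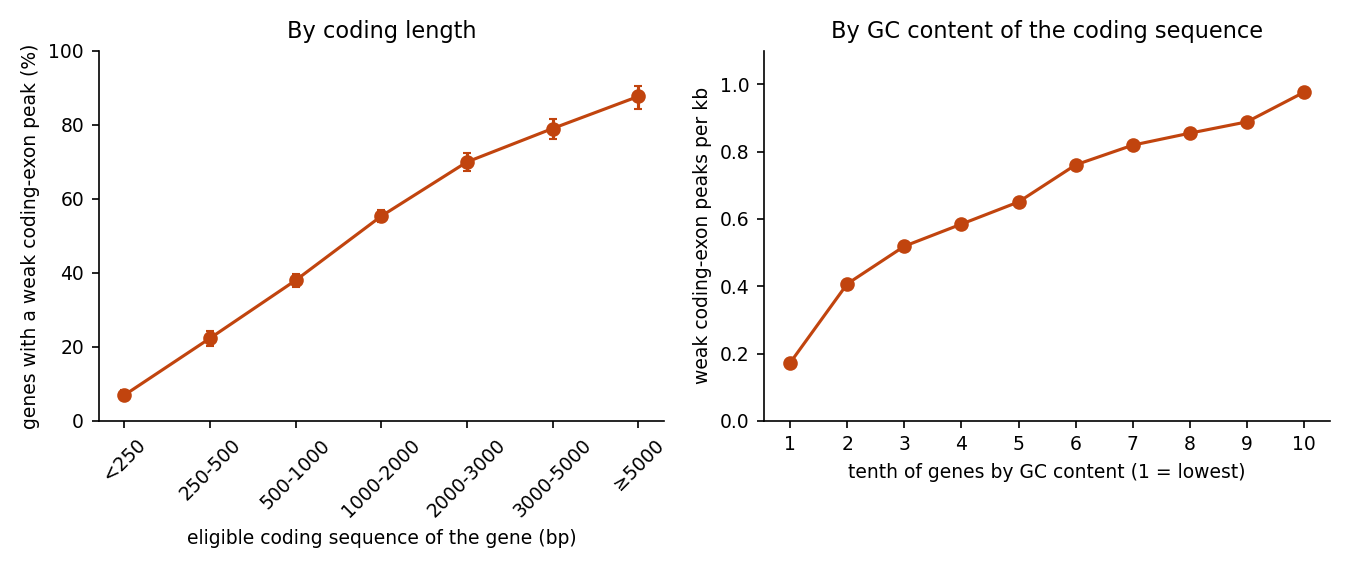
Left, percent of coding genes with at least 1 weak coding-exon peak by length of eligible coding sequence in bp, with 95% exact intervals. Right, weak coding-exon peaks per kb in 10 groups of genes by GC content of the coding sequence, low to high, without error bars. These groups hold only genes with at least 1000 bp of eligible sequence. The share runs from 6.96 to 87.7% with length, and the density from 0.173 to 0.977 per kb with GC content. By length the density, not drawn, was 0.537 per kb in the shortest class and 0.599 in the longest.

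The most peaks lay in genes with long coding sequences. The gene dpy (FBgn0053196, arm 2L) held 29 in 68.8 kb of eligible sequence, with 46.3 expected from GC content. The signals of these 29 peaks ran from 2.35 to 41.2 (median 19.8), with 6.70 to 17.3 in replicate 1 and 11.7 to 23.3 in replicate 2, and 12 of the 29 had replicate summits within 100 bp. Msp300 (FBgn0261836, arm 2L) held 23 in 63.8 kb, with 33.1 expected and signals of 2.00 to 38.2. For both giants the number was below that expected at their GC content. Dys, the dystrophin gene (FBgn0260003, arm 3R), stood the other way with 18 peaks in 14.4 kb (1.25 per kb), against 8.82 expected, and signals up to 40.2.

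The next 7 genes held 14 to 16 peaks each. Mical, which encodes an oxidoreductase that takes actin filaments apart, and Zasp52, a protein of the muscle Z-disc, held 16 each, against 9.08 and 7.20 expected. Dscam1, an adhesion receptor of neurons with many splice forms, held 15 against 12.4 expected, and Svil, the fly supervillin gene, held 15 against 12.1. The gene btsz, whose protein is related to synaptotagmins, held 15 against 9.26. The spectraplakin gene shot held 15 against 17.5, and Doa, a kinase gene, held 14 against 7.91. Of the 10 genes with the most peaks, dpy, Msp300 and shot were below the expected number and the other 7 above it. The genes were chosen for their number of peaks, so a number above expectation is partly the choice.

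Among genes with at least 2 kb of eligible sequence, the highest densities were 2.99 per kb in dan (7 peaks), whose protein acts in antennal identity, 2.87 in CG13907 (6 peaks) and 2.86 in fz2 (7 peaks), which encodes a Wnt receptor. The other 7 were CG12702, twy, wfs1, CG34355, Nckx30C, jef and CG31342 at 2.59 to 2.73 per kb, where wfs1 is the fly wolframin gene and Nckx30C encodes a sodium, calcium and potassium exchanger. In fz2 the expected number was 2.87 peaks, and in dan 2.33. None of the 7 dan peaks had replicate summits within 100 bp, nor did any of the 6 in CG13907, while 5 of the 7 in Nckx30C did.

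Gug, the tagged gene (FBgn0010825, arm 3L), held 1 weak coding-exon peak in 6.04 kb of eligible sequence, against 5.86 expected from its GC content of 58.0%. Its summit was at 8463078 on dm6, with a pooled signal of 46.3, and with 17.7 in replicate 1 and 26.2 in replicate 2. The IDR was 0.182, the replicate summits were 87 bp apart, and the window had 49.5% GC. The matched peak was in the ranked list of replicate 2 and not in that of replicate 1. The gene thus held fewer of these weak peaks than its length and GC content would give, and the window of its only one was poorer in GC than the gene. Gug also held 9 summits past the limit, and the weak peak was 1210 bp from the nearest summit past the limit. The low number is therefore one of weak coding-exon peaks only.

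Groups of genes were described with 22 lists of known roles, by peaks per kb of eligible coding sequence beside 0.665 per kb over all coding genes. The list named for ecdysone response factors also holds genes such as E23, kni, Met, gce and Kr-h1. It had 63 peaks in 17 of 19 genes, or 0.943 per kb (0.725 to 1.21), against 61.4 peaks expected from GC content. Eip75B, a nuclear receptor gene, held 11 of them (5.81 expected), Hr4, another nuclear receptor gene, held 7 (7.81 expected) and Eip74EF, an ETS factor gene, held 6 (3.81 expected). The list as a whole was thus above all coding genes per kb and close to the number expected at its GC content.

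Regulators of transcription and development spread around the value of all genes. The Notch pathway had 41 peaks in 10 of 17 genes (0.901 per kb, 35.2 expected), of which the receptor N held 11 and its ligand Ser 8. That list left out the ligand gene Delta, whose older name matched several genes, and with its 5 peaks the list had 46 in 11 of 18 genes (0.958 per kb, 37.2 expected). Hox genes and cofactors had 24 in 11 of 17 genes (0.872 per kb, 24.4 expected), with 4 in Abd-B, the most posterior Hox gene. Mixed transcription regulators had 98 in 21 of 28 genes (0.744 per kb, 114 expected), with 12 in osa, a subunit gene of the Brahma remodeller, and 11 in nej, the CBP acetyltransferase gene. The list of corepressors and repressors, which includes Gug itself, had 47 in 15 of 19 genes (0.730 per kb, 53.3 expected), with 5 each in Sin3A, Smr and the Dpp-pathway repressor brk. Polycomb and Trithorax group genes had 71 in 17 of 27 genes (0.642 per kb, 76.5 expected), where osa and skd, a Mediator subunit gene, led with 12 and 10.

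Structural and secreted proteins ran from 0.207 to 0.835 per kb. Genes of the extracellular and apical matrix had 77 peaks in 17 of 17 genes (0.835 per kb, 70.3 expected), a list that left dpy out because its older name matched several genes. With dpy it had 106 peaks in 18 of 18 genes, or 0.658 per kb (0.539 to 0.796) against 117 expected, so that it was no longer above all genes and fell short of the number expected from GC content. Without dpy, the list was led by other large genes, with 14 in the laminin alpha gene wb, 12 in the perlecan gene trol and 6 in the collagen gene Col4a1. Cytoskeleton and adhesion genes had 128 in 19 of 24 genes (0.537 per kb, 0.448 to 0.639; 145 expected), with 12 in the dynein gene Dhc64C besides shot and Msp300. Muscle structural genes had 89 in 15 of 24 genes (0.399 per kb, 0.320 to 0.490; 119 expected), and Msp300, which belongs to both lists, gives 63.8 kb of the eligible sequence of each. Neuronal and synaptic genes had 78 in 17 of 27 genes (0.533 per kb, 94.3 expected), with 8 each in the neuroligin gene Nlg2 and the adenylyl cyclase gene rut. Cuticle and chitin genes had 16 in 10 of 22 genes (0.497 per kb, 22.7 expected), with 4 in the chitin deacetylase gene verm. Glue and salivary secretion genes had 3 in 2 of 9 genes (0.207 per kb, 7.72 expected). The muscle list had an interval below both the value of all genes and its own GC expectation per kb.

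Housekeeping, metabolic and germline lists lay mostly below 0.665. Cytoplasmic ribosomal proteins had 2 peaks in 2 of 19 genes (0.254 per kb, 0.0308 to 0.919; 6.67 expected), in RpL13 and RpLP0, and translation factors had 23 in 11 of 20 (0.548 per kb, 27.4 expected). Cell cycle and DNA replication genes had 29 in 13 of 28 (0.573 per kb, 33.9 expected), and heat shock and chaperone genes had 16 in 10 of 20 (0.620 per kb, 22.4 expected). Glycolysis and intermediary metabolism had 27 in 15 of 24 (0.648 per kb, 36.3 expected), and the mitochondrial respiratory chain was above all genes with 17 in 11 of 22 (0.913 per kb, 16.2 expected). Fat body, storage and lipid genes had 30 in 10 of 19 (0.614 per kb, 25.7 expected), 10 of them in the lipid transfer gene Apoltp. Chemosensory receptor genes had 14 in 8 of 35 (0.415 per kb, 16.4 expected). Male germline genes had 14 in 9 of 23 (0.571 per kb, 15.7 expected), and female germline and eggshell genes had 15 in 10 of 24 (0.348 per kb, 24.3 expected). Over the 22 lists, Spearman's rho between the GC content of the eligible sequence and peaks per kb was 0.700, as a description, since the lists share genes and libraries.

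**Figure D5:**
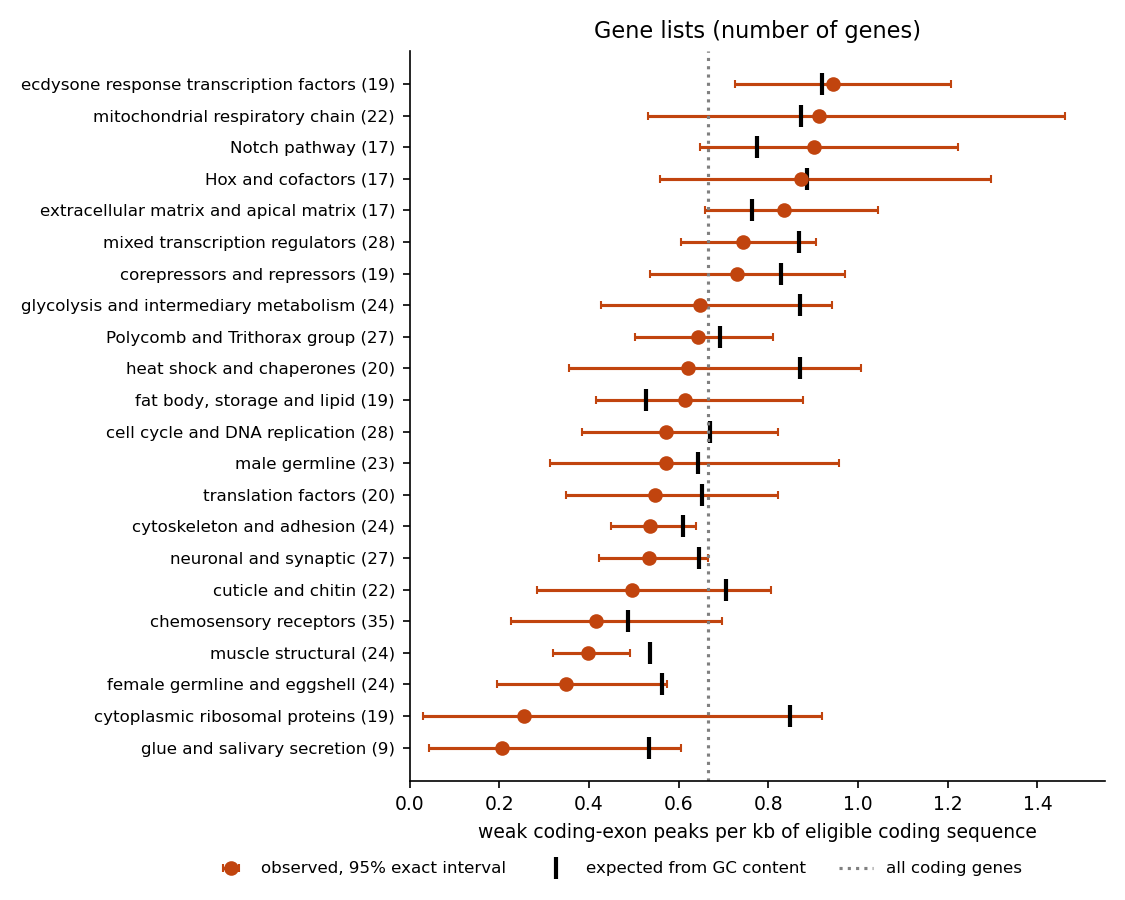
Weak coding-exon peaks per kb of eligible coding sequence in 22 gene lists (number of genes in brackets), with 95% exact intervals. Black ticks are the values expected from GC content and the dotted line is 0.665 per kb over all coding genes. The ecdysone response list is at 0.943 and the glue genes at 0.207, and the lists are drawn without Delta and dpy.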

How the data were processed

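ChIP-seq peaks of Gug-eGFP from 2 replicates of 1 group were read from the lists deposited by the authors with dm6 coordinates, per the file headers. The aligner and caller are not given in the sources used here, nor are the settings of the IDR step. The signal deposited by the authors is the caller's value per peak with no unit, the −log10 IDR deposited by the authors gave the limit of 2 (an IDR of 0.01), and the score and −log10 q-value deposited by the authors were not used. Depth is unknown. Positions are 1-based.

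Genes and exons came from Ensembl release 115 on dm6 and sequences from the RefSeq genome of dm6. Eligible coding bases are coding bases of the 6 arms with no transcript start within 500 bp. GC content and motifs used 200 bp windows. The number expected from GC content uses windows in steps of 2 points. Shares have 95% exact binomial intervals, and these cover only the error of counting. Since there is 1 group and peaks of the same libraries are not replicates, no test was made.

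The peaks and the 22 gene lists were chosen with earlier results of these data known. Named genes were Gug, the 10 with the most peaks, the 10 with the most per kb (at least 2 kb eligible), those of the 10 peaks highest in signal, up to 3 per list with the most peaks, and those of the 3 peaks on either side of the limit. Of the list names, 506 matched a symbol and 10 an older symbol, 6 were repeats and 9 matched no single gene. For 4 of the 9 (Delta, dpy, Stip1 and nanos) the gene was added to its list after seeing the data, as an alternative.

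Alternatives were other limits, distances and windows, the larger set, each replicate alone, midpoints and the peaks above the median signal. The coding share and the ratio at equal GC content were tested on simulated data of 61244 summits a set, and the other steps were not. The interval held the share of bases in 20 of 20 uniform sets, and a planted coding share of 40% in 18 of 20. In 5 sets with a planted ratio of introns to coding exons of 1.3 at equal GC content, 1.26 to 1.295 was found, and with a planted ratio of 1 it was 0.965 to 0.992, so each came out slightly low. In these sets the chance of a summit doubled with every 5 points of GC content. Without the weighting their ratios were 0.294 to 0.299 and 0.225 to 0.227, while the data had 454 peaks per Mb in introns against 665 in coding exons. The GC course of the data was not simulated. Python 3.11.15, numpy 2.4.6, pandas 2.3.3, scipy 1.17.1, biopython 1.88 and matplotlib 3.10.9 were used.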

Additional observations from a re-analysis of the deposited data

How the results depend on the processing

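With an IDR limit of 0.05 in place of 0.01, coding exons held 20.6% of the weak peaks, against 20.04% as reported, and with no transcript start allowed within 1000 bp they held 14.9%, where the eligible bases are also fewer. The share was 18.9% when bases in an annotated UTR were not counted as coding and 18.2% over the peaks above the median signal, and 17.9 to 18.1% in the list of either replicate alone. Over the peaks above the median signal, which are fewer by construction, there were 5565 coding-exon peaks, 31.3% of genes held one, the density was 0.301 per kb and the median GC content was 56%. In the list of a replicate alone, which holds fewer peaks, there were 6619 to 8393 coding-exon peaks, 36.1 to 39.8% of genes held one, the density was 0.359 to 0.455 per kb, and the median GC content was 55.5%. Of the 2 single lists, the lower number, 6619 against 12276, is that without replicate 1. The median GC content was 56% in windows of 100 bp and 54.25% in windows of 400 bp. Replicate summits were within 50 bp in 31.5% of the peaks. Densities of coding exons over introns were added after seeing the data. At equal GC content the ratio was 0.779 with the limit of 0.05, 0.603 above the median signal, 0.787 and 0.823 in windows of 100 and 400 bp, and 0.668 to 0.677 in single replicates, against 0.752 as reported. Without the weighting it was 1.51 with the limit of 0.05, 1.304 above the median signal and 1.28 to 1.31 in single replicates, against 1.46. With genes added whose older name had matched several genes, the matrix list was at 0.658 per kb (with dpy) against 0.835, and 3 other lists stayed within their intervals, with 0.958 (Notch pathway, with Delta), 0.630 (heat shock, with Stip1) and 0.386 (female germline, with nanos). The midpoint gave the same peaks, because it is the summit, and no summit was repeated. The cause of the other shifts was not tested. The ratio of coding exons to introns kept its direction in every alternative, with and without the weighting. The matrix list turned from above all coding genes per kb to just below them when dpy was added. No paired analysis was possible because the labels give a single group. Depth is unknown, so a gene without a peak is only one without a listed peak.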
